A study of Homo sapiens with 12 samples.

Results

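The comparison described here set MDA-MB-231 cells given the mtAsn-2 locked nucleic acid (LNA) against MDA-MB-231 cells given the mtLys LNA, with 3 RNA-seq libraries in each group out of 12 libraries in the series. MDA-MB-231 is a human cell line from a triple-negative breast tumour with mesenchymal features. An LNA is a modified oligonucleotide that binds RNA of matching sequence. The mtAsn-2 group received 20 nM of one of the pair of LNAs named for the mitochondrial asparagine tRNA, the mtLys group received 20 nM of the LNA named for the mitochondrial lysine tRNA, and both were given with Lipofectamine 2000 and collected on day 2. Every one of the 6 libraries therefore came from cells that had received a transfection reagent and an LNA. The 3 libraries of the control LNA, treated in the same way, are given only as a level beside both groups. Gene values were those of the 52859 intact gene lines of the deposited count table, and 16051 of these genes had enough reads to be tested. No sequence of an LNA was used here. Because the labels do not state if replicate libraries are separate cultures, the spread behind each p-value could be partly or wholly technical.

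Mitochondria make a small set of their own proteins with their own tRNAs, and the other mitochondrial proteins, including the synthetases that load these tRNAs, are encoded in the nucleus. Cells short of an amino acid or with disturbed mitochondria raise ATF4, a transcription factor that switches on amino acid synthesis, transport and tRNA loading. NF-kB is a second inducible factor, held back by inhibitor proteins, whose targets in breast cancer lines include neutrophil chemokines and colony-stimulating factors. The gene groups below are ordered from the targeted tRNAs to signalling, protein synthesis, metabolism, adhesion and cell division.

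The 2 targeted tRNAs are shown because they are the named targets of the LNAs, with the anticodon in capitals. Both are written 5′ to 3′ as DNA letters, from GENCODE v29 on GRCh38.
MT-TN: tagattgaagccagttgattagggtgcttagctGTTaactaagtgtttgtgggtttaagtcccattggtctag
MT-TK: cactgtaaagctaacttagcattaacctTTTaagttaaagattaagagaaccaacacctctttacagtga
MT-TN, the asparagine tRNA gene, lies at 5657 to 5729 on the minus strand of the mitochondrial genome, and MT-TK, the lysine tRNA gene, at 8295 to 8364 on its plus strand. The longest run of letters that the 73-base and 70-base sequences share is 7 bases.

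MT-TN had 1, 1 and 3 reads in the mtAsn-2 libraries, against 4, 5 and 1 reads in the mtLys libraries, and 3, 6 and 2 reads in the control libraries. The groups overlapped. The ratio of MT-TN rates, mtAsn-2 over mtLys, was 0.485 with a 95% counting interval of 0.130 to 1.56, and a two-sided exact permutation test of log2 CPM gave p = 0.200, where 3 libraries against 3 cannot go below 0.1. At this depth no difference in MT-TN could be detected, so its reads say nothing about the labels. MT-TK had 8.62, 10.2 and 6.61 CPM with mtAsn-2, against 7.55, 8.29 and 7.37 CPM with mtLys (CPM is the count scaled to a common library size of 1000000). These values overlapped too, and MT-TK did not pass the test described below (log2 fold change 0.13 ± 0.141, adjusted p = 0.493). Library kits of this kind are made for longer RNA, so reads on a tRNA gene need not come from the mature tRNA. Nuclear genes encode the matching synthetases. NARS2, which loads asparagine, had 14.4 ± 0.583 CPM with mtAsn-2 and 14.4 ± 0.270 CPM with mtLys (SD, n = 3 each), and its adjusted p was 0.998. KARS1, which loads lysine in the cytosol and in mitochondria, had 148 ± 1.34 CPM with mtAsn-2 and 145 ± 2.77 CPM with mtLys (SD, n = 3 each), with an adjusted p of 0.667, and of 0.0332 with library sizes alone.

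The 6 libraries held 27316004 to 37708993 counts, of which 1.04% to 1.22% fell on mitochondrial tRNA and rRNA genes. Across genes, log2 CPM correlated at 0.9959 to 0.9963 within a group and at 0.9865 to 0.9883 between the groups, and the first principal component of the 6 libraries held 66.2% of the variance and parted the groups. Markers of this line were present, with VIM, the mesenchymal filament gene, at 3019 CPM with mtAsn-2 and 3459 CPM with mtLys. Of the 6 tested markers of this line, 4 were lower with mtAsn-2 and 1 was higher. The higher one, SPARC, was low, with a mean of 5.63 CPM with mtAsn-2 and 4.17 CPM with mtLys. The number higher was 2 with library sizes alone, with no filter, in the fit of the 6 libraries alone and without mtAsn-2 replicate 3. ESR1, PGR, the leukocyte markers PTPRC, CD3E and TYROBP, the fibroblast marker DCN and the endothelial marker CDH5 were too low to be tested. The luminal markers GATA3 and CDH1, the leukocyte markers CD68 and CD14 and the fibroblast marker PDGFRB were tested and did not pass. With mtLys, GATA3 had 12.8 to 13.9 CPM, CD68 93.2 to 104 CPM, CD14 2.99 to 3.95 CPM and PDGFRB 8.38 to 8.88 CPM. The number of leukocyte markers higher was 1 without mtLys replicate 2, and 2 were lower with no filter. Without mtAsn-2 replicate 3 a fibroblast marker was lower. Of the markers of other cell types that could be tested, LAPTM5, a leukocyte marker (-0.72 ± 0.0385, adjusted p = 5.17e-15), and the endothelial markers PECAM1 (-0.67 ± 0.0836, adjusted p = 1.39e-07) and VWF (-1.70 ± 0.418, adjusted p = 0.00123) were lower and EPCAM, a luminal marker, was higher (0.39 ± 0.124, adjusted p = 0.0101), a call lost without mtLys replicate 2.

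At an adjusted p under 0.05, 3682 genes (22.9% of those tested) were higher and 4125 (25.7%) were lower with mtAsn-2 than with mtLys, which is 48.6% of tested genes. The counts of each gene list below are to be read beside these shares. Adjusted p-values are those of edgeR's quasi-likelihood test with Benjamini-Hochberg adjustment over all 16051 genes, fold changes are log2 of mtAsn-2 over mtLys, and ± after a fold change is a standard error. Most differences were small: the median size among the called genes was 0.35 on the log2 scale, and 719 genes (4.48%) differed at least 2-fold, 277 of them higher and 442 lower. With a stricter filter, which tests fewer genes of low level, 198 genes did. The split between directions rested on the scaling of the libraries. With library sizes alone, without a factor for composition, 5447 genes were higher and 3101 lower, so that 63.7% of calls were higher in place of 47.2% and the median fold change over all genes was 0.09 in place of 0.01. The mtAsn-2 libraries did not overlap the mtLys libraries in 9077 genes (56.6%). Many genes named below were chosen for a small adjusted p or for groups that did not overlap. In those genes a lack of overlap is no further result.

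**Figure D1:**
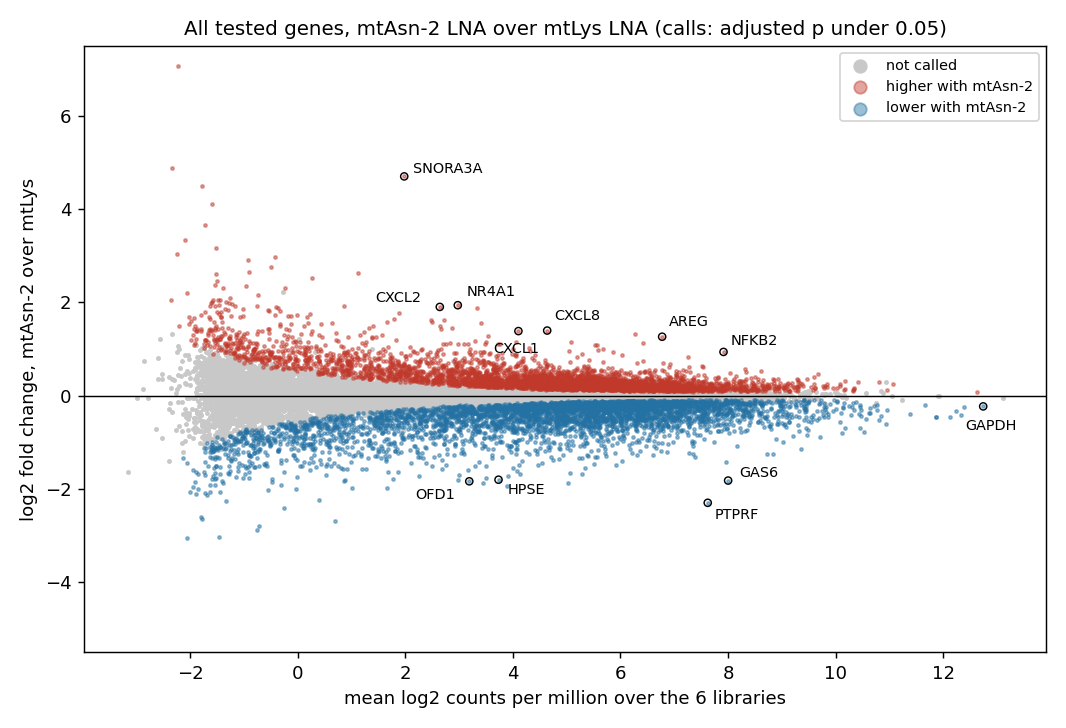
Mean log2 CPM over the 6 libraries (x axis) against the log2 fold change of mtAsn-2 over mtLys (y axis) for the 16051 tested genes. Red points are the 3682 higher genes, blue points the 4125 lower genes and grey points the rest, and 12 genes named in the text are circled, from SNORA3A at 4.70 to PTPRF at -2.30.

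NF-kB genes were higher with mtAsn-2. Of 23 tested NF-kB subunits and feedback regulators, 18 rose and none fell, with a median log2 fold change of 0.39 beside 0.01 over all tested genes. NFKB2, the p100/p52 subunit of the alternative arm (chromosome 10, 102394110 to 102402529, plus strand), had 342, 328 and 334 CPM with mtAsn-2, against 167, 183 and 173 CPM with mtLys. NFKB2 rose by 0.94 ± 0.0451 on the log2 scale (adjusted p = 4.57e-16). RELB, its partner, had 70.002, 66.4 and 66.2 CPM with mtAsn-2, against 30.7, 32.3 and 32.3 CPM with mtLys. RELB rose by 1.09 ± 0.0577 on the log2 scale (adjusted p = 3.73e-15). BIRC3, an inhibitor of apoptosis that NF-kB switches on, had 137, 124 and 121 CPM with mtAsn-2, against 51.98, 65.2 and 56.7 CPM with mtLys. BIRC3 rose by 1.14 ± 0.0729 on the log2 scale (adjusted p = 6.35e-10). In all of these the mtAsn-2 libraries lay above every mtLys library, and the control mean was 172 CPM for NFKB2, 34.7 for RELB and 56.9 for BIRC3, close to the mtLys level. TRAF1, an adaptor of TNF receptors (0.96 ± 0.0680, adjusted p = 3.27e-12), NFKBIA, the inhibitor IkB-alpha (0.64 ± 0.0556, adjusted p = 2.33e-09), TNFAIP3, the deubiquitinase A20 (0.56 ± 0.0789, adjusted p = 1.06e-06), and the subunits REL (0.72 ± 0.0768, adjusted p = 8.01e-09) and NFKB1 (0.49 ± 0.0492, adjusted p = 2.42e-09) rose too. RELA, a main activating subunit, had the smallest of the 5 subunits' rises (0.14 ± 0.0385, adjusted p = 0.00268). The 5 members that did not pass were ICAM1, TRAF2, SOD2, MAP3K14 and IKBKE. ICAM1, an adhesion molecule, had 138, 125 and 149.7 CPM with mtAsn-2, against 117, 128 and 127 CPM with mtLys, and these values overlapped (adjusted p = 0.422, and 0.0248 in a fit of the 6 libraries alone).

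Secreted chemokines, colony-stimulating factors and interleukins were also higher. Of 24 tested members, 14 rose and 2 fell, with a median of 0.73, and 9 rose at least 2-fold, as 277 of all 16051 genes did. With the stricter filter on low counts 7 were higher. CXCL8, the neutrophil chemokine interleukin-8, had 40.3, 43.7 and 37.3 CPM with mtAsn-2, against 12.7, 17.7 and 15.8 CPM with mtLys. CXCL8 rose by 1.40 ± 0.129 on the log2 scale (adjusted p = 2.00e-06). Its relatives CXCL1 and CXCL2, which act on the same receptor, had 28.99, 27.4 and 26.6 CPM and 11.8, 12.8 and 11.2 CPM with mtAsn-2, against 9.57, 11.8 and 10.4 CPM and 2.99, 3.60 and 2.94 CPM with mtLys (1.39 ± 0.132, adjusted p = 7.33e-07 for CXCL1, and 1.90 ± 0.129, adjusted p = 3.88e-12 for CXCL2). CSF2, the granulocyte-macrophage factor, had 121, 127 and 116 CPM with mtAsn-2, against 44.6, 51.7 and 50.1 CPM with mtLys. CSF2 rose by 1.32 ± 0.204 on the log2 scale (adjusted p = 0.000677). CSF3, the granulocyte factor, had 20.8, 19.8 and 16.9 CPM with mtAsn-2, against 4.72, 5.16 and 5.96 CPM with mtLys. CSF3 rose by 1.87 ± 0.132 on the log2 scale (adjusted p = 7.61e-10). CXCL8, CXCL1, CXCL2, CSF2 and CSF3 belong to a ranking, given below, of genes whose groups did not overlap. Their lack of overlap follows from that choice. Their control means were below both groups, at 9.22 CPM for CXCL8, 5.59 for CXCL1, 2.70 for CXCL2, 23.9 for CSF2 and 2.69 for CSF3. IL6 (1.01 ± 0.0954, adjusted p = 4.68e-09), IL1A (1.55 ± 0.188, adjusted p = 8.47e-08) and the low chemokine CCL20 (1.38, 1.22 and 0.731 CPM with mtAsn-2, against 0.135, 0.176 and 0.223 CPM with mtLys, 2.65 ± 0.349, adjusted p = 3.29e-07) rose as well. IL18 (-0.32 ± 0.0649, adjusted p = 0.000137) and CCL28 (-0.25 ± 0.0862, adjusted p = 0.0170) fell. The CCL28 call was lost with library sizes alone and without mtAsn-2 replicate 1, mtLys replicate 1 or mtLys replicate 3, each of which left 1 member lower. IL1B rose (0.45 ± 0.168, adjusted p = 0.0294), a call lost by DESeq2 and without mtAsn-2 replicate 2, mtLys replicate 2 or mtLys replicate 3.

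**Figure D2:**
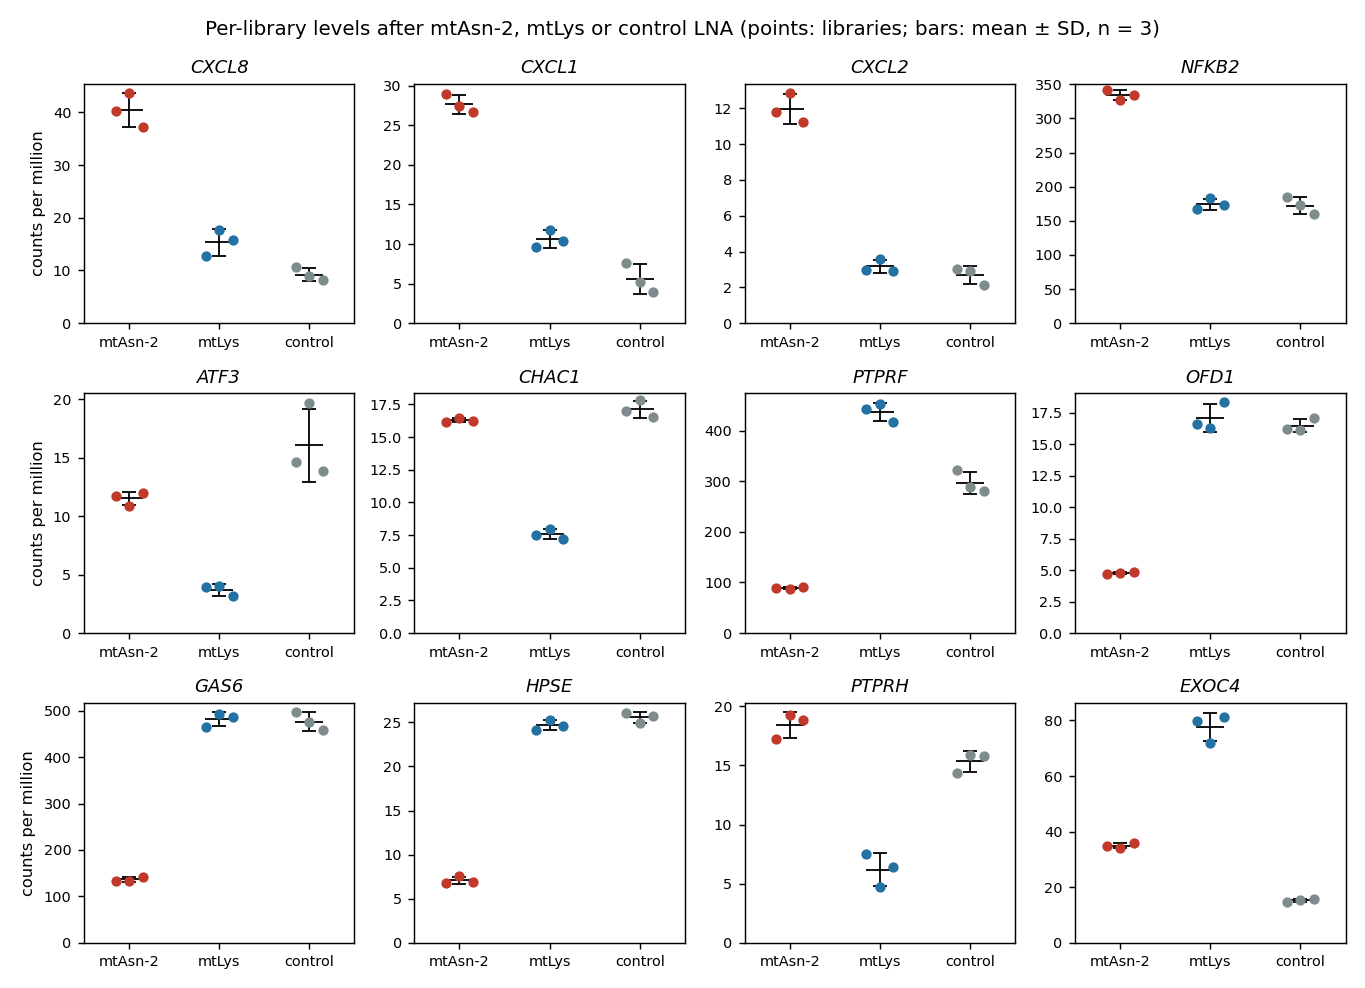
CPM of 12 genes in each library, with mtAsn-2 at the left, mtLys in the middle and control at the right of each panel (points are libraries, bars mean ± SD, n = 3). The mtAsn-2 and mtLys groups do not overlap in any panel, which for most of these genes was a condition of their choice. The control level lies near mtLys for NFKB2, GAS6 and HPSE and near mtAsn-2 for CHAC1.

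The promoters of the 3 neighbouring chemokine genes are shown because these genes moved together. The NF-kB type motif GGNNTTTCC (N is any base) is in capitals where it occurs. Each runs from 250 bases before to 50 after the gene start, 5′ to 3′ on the gene's strand, from RefSeq on GRCh38.p14.
CXCL8, chr4:73740319-73740618, plus strand: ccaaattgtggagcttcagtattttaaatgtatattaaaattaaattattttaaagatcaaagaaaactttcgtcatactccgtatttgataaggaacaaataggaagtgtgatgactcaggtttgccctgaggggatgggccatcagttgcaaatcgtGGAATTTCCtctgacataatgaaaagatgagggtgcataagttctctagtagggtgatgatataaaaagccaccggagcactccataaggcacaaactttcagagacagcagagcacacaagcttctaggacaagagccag
CXCL1, chr4:73869143-73869442, plus strand: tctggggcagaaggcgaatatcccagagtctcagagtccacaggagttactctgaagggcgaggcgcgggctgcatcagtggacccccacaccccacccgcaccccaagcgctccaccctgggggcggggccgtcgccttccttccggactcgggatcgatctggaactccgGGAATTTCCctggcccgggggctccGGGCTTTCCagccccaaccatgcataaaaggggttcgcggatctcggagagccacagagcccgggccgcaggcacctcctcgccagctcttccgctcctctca
CXCL2, chr4:74099146-74099445, minus strand: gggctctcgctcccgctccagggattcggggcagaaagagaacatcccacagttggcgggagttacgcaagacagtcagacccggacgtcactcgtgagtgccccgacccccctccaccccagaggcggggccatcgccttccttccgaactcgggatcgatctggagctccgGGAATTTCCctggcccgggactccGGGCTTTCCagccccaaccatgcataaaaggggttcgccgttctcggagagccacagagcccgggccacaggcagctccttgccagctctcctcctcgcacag
The motif was searched on both strands and no other motif was searched. It was present in 742 of the 11195 tested genes with a promoter entry (6.63%), in 222 of 2784 higher genes (7.97%) and in 171 of 3187 lower genes (5.37%). It was in 10 of 21 promoters of the NF-kB list (47.6%) and 8 of 16 of the cytokine list, and both lists hold many known NF-kB targets. Among the higher members with a promoter entry, 9 of 16 in the NF-kB list and 7 of 11 in the cytokine list held it. Of the other genes described above, only the windows of IL6, CSF2 and NFKB2 are given singly. That of IL6 held the motif and those of CSF2 and NFKB2 did not. A match or its absence describes the letters in this window and says nothing about binding.

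Immediate early factors, which cells switch on within minutes of a stimulus, rose in 17 and fell in 4 of 27 tested members, with a median of 0.29. NR4A1, an orphan nuclear receptor, had 14.7, 14.995 and 15.98 CPM with mtAsn-2, against 3.69, 4.10 and 4.13 CPM with mtLys. NR4A1 rose by 1.94 ± 0.106 on the log2 scale (adjusted p = 7.32e-15). EGR1, a zinc finger factor, had 53.2, 50.9 and 47.1 CPM with mtAsn-2, against 26.6, 18.5 and 23.2 CPM with mtLys. EGR1 rose by 1.14 ± 0.169 on the log2 scale (adjusted p = 0.000424). FOSB, an AP-1 subunit, had 3.85, 4.47 and 3.44 CPM with mtAsn-2, against 1.46, 1.90 and 1.60 CPM with mtLys. FOSB rose by 1.24 ± 0.148 on the log2 scale (adjusted p = 5.74e-08). The groups did not overlap in these genes, which for NR4A1 was a condition of its choice. The control levels of these genes differed: the control mean was 19.1 CPM for NR4A1, above both groups, and 22.6 CPM for EGR1, at the mtLys level. MYC rose slightly (0.29 ± 0.0421, adjusted p = 1.37e-06). The AP-1 subunits FOSL1 (-0.21 ± 0.0393, adjusted p = 5.95e-05) and JUN (-0.24 ± 0.0586, adjusted p = 0.00187) fell, as did KLF6 (-0.38 ± 0.0737, adjusted p = 0.000588) and the mRNA decay factor ZFP36L1 (-0.53 ± 0.0550, adjusted p = 7.57e-08). Among 20 tested feedback genes of MAP kinase signalling, 1 rose and 11 fell: DUSP2, a nuclear phosphatase, rose (1.38 ± 0.205, adjusted p = 2.22e-06), and the ETS factors ETV5 (-0.65 ± 0.0434, adjusted p = 6.80e-13) and ETV4 (-0.35 ± 0.0427, adjusted p = 8.41e-08) and the Sprouty-related inhibitor SPRED1 (-0.46 ± 0.0471, adjusted p = 3.51e-09) were among those that fell. The number higher was 5 with library sizes alone, 4 in the fit of the 6 libraries alone, 3 without mtAsn-2 replicate 1, and 2 with DESeq2's size factors, by DESeq2, with no filter or with a replicate block. AREG, an epidermal growth factor receptor ligand, had 163, 176 and 170.1 CPM with mtAsn-2, against 75.2, 62.4 and 74.7 CPM with mtLys. AREG rose by 1.26 ± 0.0945 on the log2 scale (adjusted p = 3.95e-07). EGFR, its receptor, fell (-0.38 ± 0.0365, adjusted p = 8.52e-10).

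Genes of the ATF4 stress programme were higher with mtAsn-2. Of 39 tested ATF4 targets and integrated stress response genes, 30 rose and 5 fell, with a median of 0.37. ATF4 itself had 522, 515 and 535 CPM with mtAsn-2, against 411, 409.7 and 417 CPM with mtLys. ATF4 rose by 0.34 ± 0.0357 on the log2 scale (adjusted p = 4.49e-09). ATF3, a stress-induced factor, had 11.7, 10.9 and 11.96 CPM with mtAsn-2, against 3.91, 4.04 and 3.13 CPM with mtLys. ATF3 rose by 1.63 ± 0.134 on the log2 scale (adjusted p = 1.33e-09). NUPR1, a stress-induced chromatin protein, had 9.33, 9.68 and 9.68 CPM with mtAsn-2, against 2.83, 3.57 and 3.28 CPM with mtLys. NUPR1 rose by 1.57 ± 0.124 on the log2 scale (adjusted p = 4.42e-11). CHAC1, which degrades glutathione, had 16.2, 16.5 and 16.2 CPM with mtAsn-2, against 7.49, 7.97 and 7.22 CPM with mtLys. CHAC1 rose by 1.10 ± 0.0771 on the log2 scale (adjusted p = 1.59e-12). The mtAsn-2 libraries lay above all mtLys libraries in each, where a lack of overlap was a condition of the choice of ATF3 and NUPR1. The control mean lay above both groups in each, at 558 CPM for ATF4, 16.1 for ATF3, 15.7 for NUPR1 and 17.1 for CHAC1. DDIT3, the factor CHOP (0.72 ± 0.0565, adjusted p = 1.92e-11), GDF15, a stress-induced cytokine (0.70 ± 0.126, adjusted p = 0.000230), TRIB3 (0.38 ± 0.0671, adjusted p = 3.06e-05) and SLC3A2, the shared chain of amino acid exchangers (0.30 ± 0.0493, adjusted p = 2.07e-05), rose too. ASNS, asparagine synthetase, was low, with 1.71, 2.16 and 1.83 CPM with mtAsn-2, against 1.11, 1.05 and 1.12 CPM with mtLys and 2.95 CPM in control. ASNS rose by 0.79 ± 0.180 on the log2 scale (adjusted p = 0.000614). The 5 members that fell included SLC7A11, the cystine carrier, with 61.99, 61.8 and 59.3 CPM with mtAsn-2, against 106, 95.9 and 97.03 CPM with mtLys. SLC7A11 fell by 0.71 ± 0.0470 on the log2 scale (adjusted p = 5.23e-13). The glycine carrier SLC6A9 (-0.41 ± 0.0572, adjusted p = 8.19e-07), VLDLR, VEGFA and HERPUD1 were the other members that fell.

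Serine and folate enzymes went both ways. PHGDH, the first enzyme of serine synthesis, had 23.4, 23.6 and 26.97 CPM with mtAsn-2, against 11.6, 10.9 and 10.8 CPM with mtLys. PHGDH rose by 1.15 ± 0.0766 on the log2 scale (adjusted p = 5.85e-13). PSAT1, the second, had 154, 159.6 and 148 CPM with mtAsn-2, against 96.8, 95.2 and 96.1 CPM with mtLys. PSAT1 rose by 0.68 ± 0.0570 on the log2 scale (adjusted p = 1.28e-09). The control means, 32.8 CPM for PHGDH and 187 CPM for PSAT1, lay above both groups. PSPH, the last enzyme, had 40.9, 38.99 and 41.1 CPM with mtAsn-2, against 38.6, 38.4 and 38.3 CPM with mtLys and did not pass (adjusted p = 0.240, and 0.00779 with library sizes alone). MTHFD2, the mitochondrial folate enzyme, rose (0.87 ± 0.0513, adjusted p = 4.31e-14), while its cytosolic counterpart MTHFD1 (-0.29 ± 0.0379, adjusted p = 3.29e-07), thymidylate synthase TYMS (-0.29 ± 0.0476, adjusted p = 8.07e-06) and methionine synthase MTR (-0.37 ± 0.0525, adjusted p = 1.05e-06) fell. Of 25 tested enzymes 10 rose (40%) and 5 fell (20%, below the 25.7% of all tested genes), the others that fell being FPGS and MTHFD1L, with a median of 0.07. With library sizes alone the FPGS and MTHFD1L calls were lost and 3 were lower. The FPGS call was also lost by DESeq2 and without mtAsn-2 replicate 2 or 3 or mtLys replicate 1 or 3. PHGDH, PSAT1 and MTHFD2 are members of the ATF4 list as well.

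Of 38 tested interferon-stimulated genes, 20 rose and 5 fell, with a median of 0.20. OAS3, which makes the messenger that activates RNase L, had 76.1, 86.3 and 77.2 CPM with mtAsn-2, against 42.999, 42.2 and 40.1 CPM with mtLys. OAS3 rose by 0.93 ± 0.0498 on the log2 scale (adjusted p = 4.56e-15). IFI6 had 26.8, 29.5 and 29.95 CPM with mtAsn-2, against 16.3, 14.4 and 16.3 CPM with mtLys. IFI6 rose by 0.88 ± 0.0691 on the log2 scale (adjusted p = 2.03e-11). STAT2, a carrier of the interferon signal, had 76.5, 83.6 and 88.1 CPM with mtAsn-2, against 115, 113 and 119 CPM with mtLys. STAT2 fell by 0.48 ± 0.0561 on the log2 scale (adjusted p = 1.21e-07), and so did GBP2 (-0.49 ± 0.0787, adjusted p = 4.10e-05), IFITM2 (-0.22 ± 0.0551, adjusted p = 0.00181), MX2 and EPSTI1. The MX2 call was lost by DESeq2 and without mtAsn-2 replicate 2 or mtLys replicate 3.

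A list of nucleic acid sensing and signalling genes, not all of them sensors of nucleic acids, went both ways. Of 20 tested members 10 were higher (50%) and 5 lower (25%, near the 25.7% of all tested genes). The endosomal RNA receptor TLR3 (0.87 ± 0.0713, adjusted p = 4.24e-11) and the DNA sensor CGAS (0.47 ± 0.0576, adjusted p = 1.03e-07) rose, and the cytosolic RNA sensor IFIH1 (-0.59 ± 0.0753, adjusted p = 2.04e-07), the lipopolysaccharide receptor TLR4 (-0.77 ± 0.0600, adjusted p = 2.30e-11) and the kinase EIF2AK2 (-0.30 ± 0.0493, adjusted p = 1.05e-05) fell, with TLR9 and DDX58. The TLR9 call was lost without mtAsn-2 replicate 1 or 2 or mtLys replicate 1 or 3, and the DDX58 call without mtAsn-2 replicate 2 or 3 or mtLys replicate 2 or 3, which left 3 members lower without mtLys replicate 3, as there were by DESeq2 and with library sizes alone. Of 11 tested genes of class I antigen presentation, 2 rose and 2 fell (18.2% each), no more than the 22.9% and 25.7% of all tested genes, and with library sizes alone 4 were higher and 1 lower. HLA-B (0.37 ± 0.0640, adjusted p = 2.33e-05) and the peptidase ERAP1 rose, and the chaperone CALR (-0.24 ± 0.0396, adjusted p = 1.21e-05) and NLRC5 fell. The NLRC5 call was lost with library sizes alone and without mtAsn-2 replicate 2 or mtLys replicate 2.

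Genes of the cytosolic ribosome rose together by small amounts. Of 79 tested ribosomal protein genes, 66 rose and 4 fell, with a median of 0.18, and their summed level was 49239 CPM with mtAsn-2 and 43361 CPM with mtLys, and 46127 CPM in the control libraries. RPL12 had 969, 967 and 958 CPM with mtAsn-2, against 712, 665 and 716 CPM with mtLys. RPL12 rose by 0.47 ± 0.0406 on the log2 scale (adjusted p = 1.48e-10). RPS14 had 721, 701 and 699.5 CPM with mtAsn-2, against 543, 554 and 559.5 CPM with mtLys. RPS14 rose by 0.36 ± 0.0387 on the log2 scale (adjusted p = 1.04e-08). RPS27 had 715, 717 and 710.4 CPM with mtAsn-2, against 565, 529 and 593 CPM with mtLys. RPS27 rose by 0.35 ± 0.0422 on the log2 scale (adjusted p = 9.29e-08). The groups did not overlap in these genes. The 4 that fell were RPL26L1, RPL27A, RPS27L and RPS4X, and with library sizes alone, with no filter on low counts or without mtLys replicate 3 the RPS27L and RPS4X calls were lost and 2 were lower. The RPS27L call was also lost without mtLys replicate 2, and the RPS4X call without mtLys replicate 1. RPL26L1, a paralog of RPL26, had 11.5, 10.47 and 10.2 CPM with mtAsn-2, against 24.1, 26.5 and 26.5 CPM with mtLys. RPL26L1 fell by 1.26 ± 0.0752 on the log2 scale (adjusted p = 5.58e-14). RPL26 itself rose (0.28 ± 0.0424, adjusted p = 3.39e-06), and reads shared between these near-identical genes and the many ribosomal pseudogenes make single members uncertain. RPL27A had 423, 412 and 422 CPM with mtAsn-2, against 564, 535 and 571 CPM with mtLys and 613 CPM in control. RPL27A fell by 0.41 ± 0.0373 on the log2 scale (adjusted p = 3.68e-10).

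RPL27A carries the small nucleolar RNAs SNORA3A and SNORA3B, guides for the pseudouridylation of ribosomal RNA, in its introns. SNORA3A (chromosome 11, 8684227 to 8684356, plus strand, in the third intron of RPL27A) had 19.6, 19.9 and 18.1 CPM with mtAsn-2, against 0.728, 0.732 and 0.745 CPM with mtLys and 1.09 CPM in control. SNORA3A rose by 4.70 ± 0.124 on the log2 scale (adjusted p = 1.52e-21). SNORA3B (chromosome 11, 8685439 to 8685569, plus strand, in the fourth intron) had 2.73, 2.53 and 2.77 CPM with mtAsn-2, against 0.458, 0.439 and 0.484 CPM with mtLys. SNORA3B rose by 2.53 ± 0.206 on the log2 scale (adjusted p = 3.88e-11). All mtAsn-2 libraries lay above all mtLys and control libraries in both, while their host gene was lower with mtAsn-2. SNORA58B, inside UBAP2L, had 1.40, 1.12 and 1.19 CPM with mtAsn-2, against 0.243, 0.146 and 0.0745 CPM with mtLys. SNORA58B rose by 2.90 ± 0.298 on the log2 scale (adjusted p = 3.65e-09). UBAP2L itself had 475 ± 6.73 CPM with mtAsn-2 and 456 ± 3.36 CPM with mtLys (SD, n = 3 each, adjusted p = 0.177, and 0.00166 with library sizes alone). Of all 116 tested snoRNA genes, 22 rose (19.0%, below the 22.9% of all tested genes) and 2 fell, with a median of 0.26, the lower ones being SNORD135 and SNORD49A. Both of these calls were lost by DESeq2 and without mtAsn-2 replicate 1 or 3 or mtLys replicate 2 or 3. Of the 22, 21 lay within a tested host gene on the same strand: the host rose for 13 of them, fell for 2 and did not pass for 6. Over all 113 tested snoRNA genes with such a host, the host rose for 79 (69.9%), so 13 of 21 (61.9%) is no larger a share. The 2 with a lower host are the pair in RPL27A. Reads on a snoRNA gene may come from the mature RNA or from unspliced host RNA, and these cannot be told apart here.

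**Figure D3:**
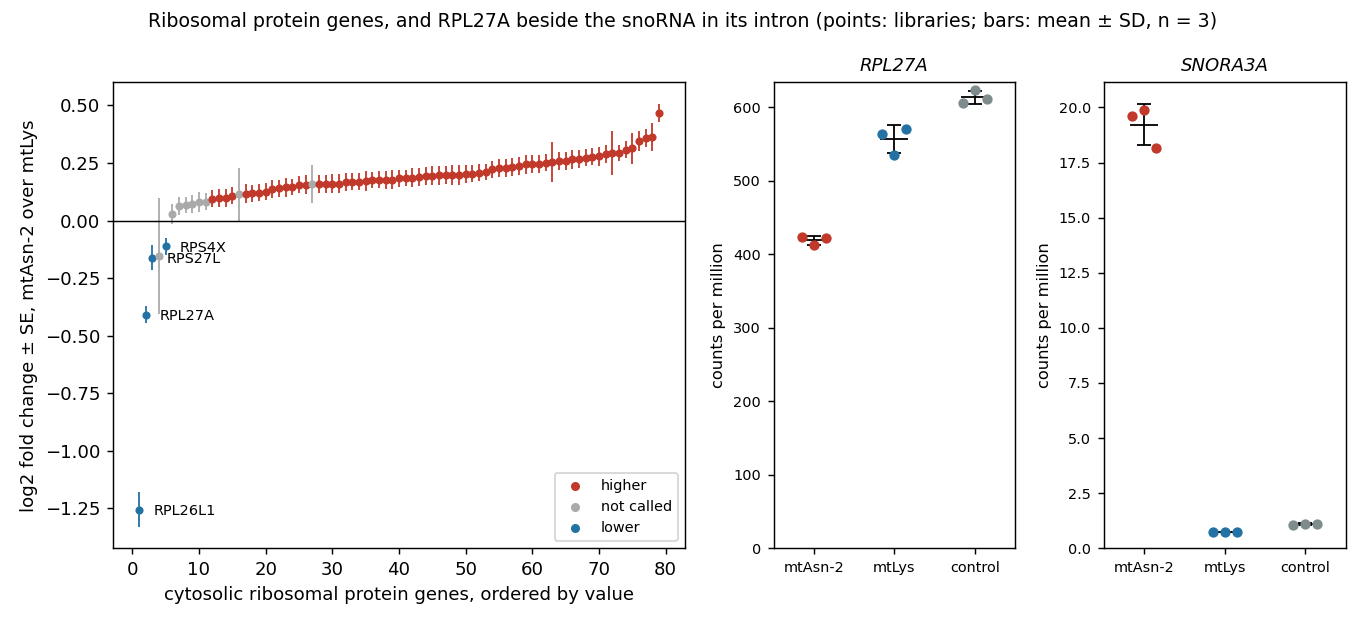
Left, log2 fold change ± SE of mtAsn-2 over mtLys for the 79 tested cytosolic ribosomal protein genes in order of value, with the 4 lower genes named. Middle and right, CPM of RPL27A and of SNORA3A in its intron in each library (points; bars mean ± SD, n = 3), where mtAsn-2 is below mtLys and control for RPL27A and above both for SNORA3A.

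Enzymes that load tRNAs in the cytosol also rose more often than they fell, with 11 of 20 higher and 2 lower and a median of 0.15. WARS1, for tryptophan, had 235, 231 and 224 CPM with mtAsn-2, against 146, 153 and 150.3 CPM with mtLys. WARS1 rose by 0.62 ± 0.0447 on the log2 scale (adjusted p = 3.18e-12). YARS1, for tyrosine, rose (0.49 ± 0.0452, adjusted p = 4.00e-10), while FARSB, for phenylalanine (-0.23 ± 0.0544, adjusted p = 0.000777), and CARS1, for cysteine, fell. CARS1 had 3.63, 4.16 and 4.14 CPM with mtAsn-2, against 7.76, 7.79 and 8.60 CPM with mtLys. CARS1 fell by 1.02 ± 0.126 on the log2 scale (adjusted p = 2.17e-07). Of 15 mitochondrial synthetases, EARS2 (0.35 ± 0.0556, adjusted p = 5.51e-06), YARS2, MARS2 and AARS2 rose, and FARS2 (-0.53 ± 0.0811, adjusted p = 3.43e-06) and CARS2 fell, while 7 were higher with library sizes alone. The share of these synthetases that rose, 26.7%, was near the 22.9% of all tested genes. Of 35 genes for processing and modifying mitochondrial tRNA, 19 rose and 4 fell, with a median of 0.14: YRDC, needed for a modified base beside the anticodon, rose (0.42 ± 0.0587, adjusted p = 1.08e-06), and PRORP, the nuclease that trims tRNA 5′ ends (-0.32 ± 0.0524, adjusted p = 1.24e-05), TRMU, an enzyme that adds sulfur to tRNA (-0.31 ± 0.0545, adjusted p = 2.47e-05), the methyltransferase NSUN2 (-0.56 ± 0.0483, adjusted p = 1.55e-10) and FASTKD2 fell, the FASTKD2 call being lost with library sizes alone.

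Among 18 tested mitochondrial tRNA and rRNA genes, MT-TL2 (0.43 ± 0.108, adjusted p = 0.00149) and MT-TT (0.39 ± 0.147, adjusted p = 0.0467) were higher and MT-TY (-0.21 ± 0.0807, adjusted p = 0.0313) was lower. The MT-TT call was lost by DESeq2 and without any one of the 6 libraries, and the MT-TY call by DESeq2, with library sizes alone and without mtAsn-2 replicate 1 or 2 or mtLys replicate 2 or 3. Mitochondrial ribosomal proteins rose in 21 of 74 members (28.4%) and 5 fell (MRPS6, MRPL15, MRPL17, MRPL30 and MRPL48), with a median of 0.07. Of all tested genes 22.9% rose and 25.7% fell, so the share higher was near that of all genes. With library sizes alone 40 members rose, as did 5447 of all 16051 genes. The MRPL30 and MRPL48 calls were lost without mtAsn-2 replicate 2 or mtLys replicate 3, which left 3 lower, and the MRPL30 call also without mtAsn-2 replicate 3 or mtLys replicate 2. With library sizes alone the MRPL17 call was lost with these 2, which left 2 lower. Respiratory chain and ATP synthase subunits rose in 8 (11.1%) and fell in 18 (25%) of 72, with a median of -0.02. The share lower was near the 25.7% of all tested genes, and the share higher was below their 22.9%. With library sizes alone 19 rose and 9 fell and the median was 0.06, and without mtAsn-2 replicate 3 the number higher was 5. NDUFB1 (-0.63 ± 0.0561, adjusted p = 2.50e-10) and NDUFB6 (-0.57 ± 0.0493, adjusted p = 1.36e-10), subunits of complex I, were among those that fell. Of 14 mitochondrial proteases and chaperones, 5 rose (GRPEL2, HSPA9, TRAP1, AFG3L2 and HSPD1) and 2 fell (OMA1 and SPG7). The chaperone HSPA9 (0.26 ± 0.0408, adjusted p = 7.25e-06) and the protease SPG7 (-0.50 ± 0.0535, adjusted p = 9.19e-09) are examples, and the number higher was 9 with library sizes alone and 3 without mtAsn-2 replicate 2, mtLys replicate 1 or mtLys replicate 2, where the AFG3L2 and HSPD1 calls were lost. The HSPD1 call was lost also without mtAsn-2 replicate 1 or mtLys replicate 3.

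Glycolysis genes were lower with mtAsn-2. Of 21 tested genes of glycolysis and glucose uptake, 18 fell and 1 rose, or 2 with library sizes alone, with a median of -0.34, and the summed level was 22032 CPM with mtAsn-2 and 27616 CPM with mtLys, and 27254 CPM in the control libraries. PKM, pyruvate kinase, had 3191, 3051 and 3242 CPM with mtAsn-2, against 4304, 4364 and 4420 CPM with mtLys. PKM fell by 0.46 ± 0.0375 on the log2 scale (adjusted p = 3.21e-11). SLC2A1, the glucose carrier GLUT1, had 647, 627 and 642 CPM with mtAsn-2, against 882, 859.8 and 888 CPM with mtLys. SLC2A1 fell by 0.46 ± 0.0357 on the log2 scale (adjusted p = 1.64e-11). PFKP, a phosphofructokinase, had 628, 636 and 685 CPM with mtAsn-2, against 922, 900.2 and 914 CPM with mtLys. PFKP fell by 0.49 ± 0.0415 on the log2 scale (adjusted p = 8.44e-11). No library of one group reached the range of the other in these 3 genes. GAPDH (-0.23 ± 0.0457, adjusted p = 0.000163) and ENO1 (-0.34 ± 0.0373, adjusted p = 1.51e-08), which were among the 5 called genes with the most reads, fell by less, and PFKM, the muscle-type phosphofructokinase, rose (0.23 ± 0.0399, adjusted p = 2.39e-05). Outside glycolysis, 18 of 25 tested hypoxia response genes fell and 1 rose, with a median of -0.36: LOX, a collagen crosslinker, had 20.4, 19.5 and 22.1 CPM with mtAsn-2, against 45.96, 38.2 and 42.4 CPM with mtLys. LOX fell by 1.03 ± 0.0687 on the log2 scale (adjusted p = 2.07e-12). EPAS1, the factor HIF-2-alpha, fell (-0.50 ± 0.0457, adjusted p = 3.68e-10), and VHL, which marks these factors for destruction, rose (0.46 ± 0.0451, adjusted p = 1.34e-09). HIF1A fell slightly (-0.16 ± 0.0415, adjusted p = 0.00184), a call lost with library sizes alone.

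Lipid synthesis genes fell more often than they rose. In fatty acid synthesis, 14 of 21 fell and 1 rose, with a median of -0.26. SCD5, a desaturase, had 21.2, 20.2 and 23.8 CPM with mtAsn-2, against 72.1, 68.2 and 68.4 CPM with mtLys. SCD5 fell by 1.68 ± 0.0560 on the log2 scale (adjusted p = 2.15e-19). ACSL4, which activates polyunsaturated fatty acids, fell (-0.67 ± 0.0435, adjusted p = 3.18e-13), and ELOVL5, an elongase, rose (0.24 ± 0.0405, adjusted p = 1.23e-05). In cholesterol synthesis and uptake, 13 of 27 fell and 3 rose, with a median of -0.12. SREBF2, the master factor of that pathway, had 148, 149 and 168 CPM with mtAsn-2, against 236, 241 and 233 CPM with mtLys. SREBF2 fell by 0.61 ± 0.0482 on the log2 scale (adjusted p = 3.32e-11). The enzymes LSS (-0.61 ± 0.0624, adjusted p = 3.25e-09) and MSMO1 (-0.44 ± 0.0496, adjusted p = 2.36e-08) fell. SQLE (0.23 ± 0.0614, adjusted p = 0.00250) and CYP51A1 (0.13 ± 0.0521, adjusted p = 0.0360), enzymes of the same pathway, were among those that rose. The CYP51A1 call was lost without mtAsn-2 replicate 1 or 2 or mtLys replicate 1 or 3, and the number higher was 8 with library sizes alone and 5 with no filter or in the fit of the 6 libraries alone.

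In the TCA cycle and pyruvate entry, 18 of 37 fell, or 11 with library sizes alone, and 6 rose: GLUD1, glutamate dehydrogenase, had 144, 142 and 139 CPM with mtAsn-2, against 226, 221 and 232 CPM with mtLys. GLUD1 fell by 0.68 ± 0.0381 on the log2 scale (adjusted p = 1.43e-14). IDH3A, a subunit of isocitrate dehydrogenase, rose (0.38 ± 0.0555, adjusted p = 2.07e-06).

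Of 32 tested NRF2 targets and pentose phosphate genes, which protect against oxidants, 19 fell and 4 rose, with a median of -0.25. TXN, thioredoxin, had 204, 198 and 193 CPM with mtAsn-2, against 317, 314 and 329 CPM with mtLys. TXN fell by 0.69 ± 0.0406 on the log2 scale (adjusted p = 3.68e-14). ME1, malic enzyme, fell (-0.61 ± 0.0583, adjusted p = 1.04e-09). NQO1, a quinone reductase, fell (-0.44 ± 0.0466, adjusted p = 7.84e-09), with a control mean of 440.3 CPM above both groups. NFE2L2, the gene of NRF2 itself, rose slightly (0.17 ± 0.0449, adjusted p = 0.00278), as did its inhibitor KEAP1 (0.24 ± 0.0525, adjusted p = 0.000401), GPX4 and SRXN1, and with library sizes alone 8 members of the list were higher. The SRXN1 call was lost without mtAsn-2 replicate 1 or mtLys replicate 1.

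**Figure D4:**
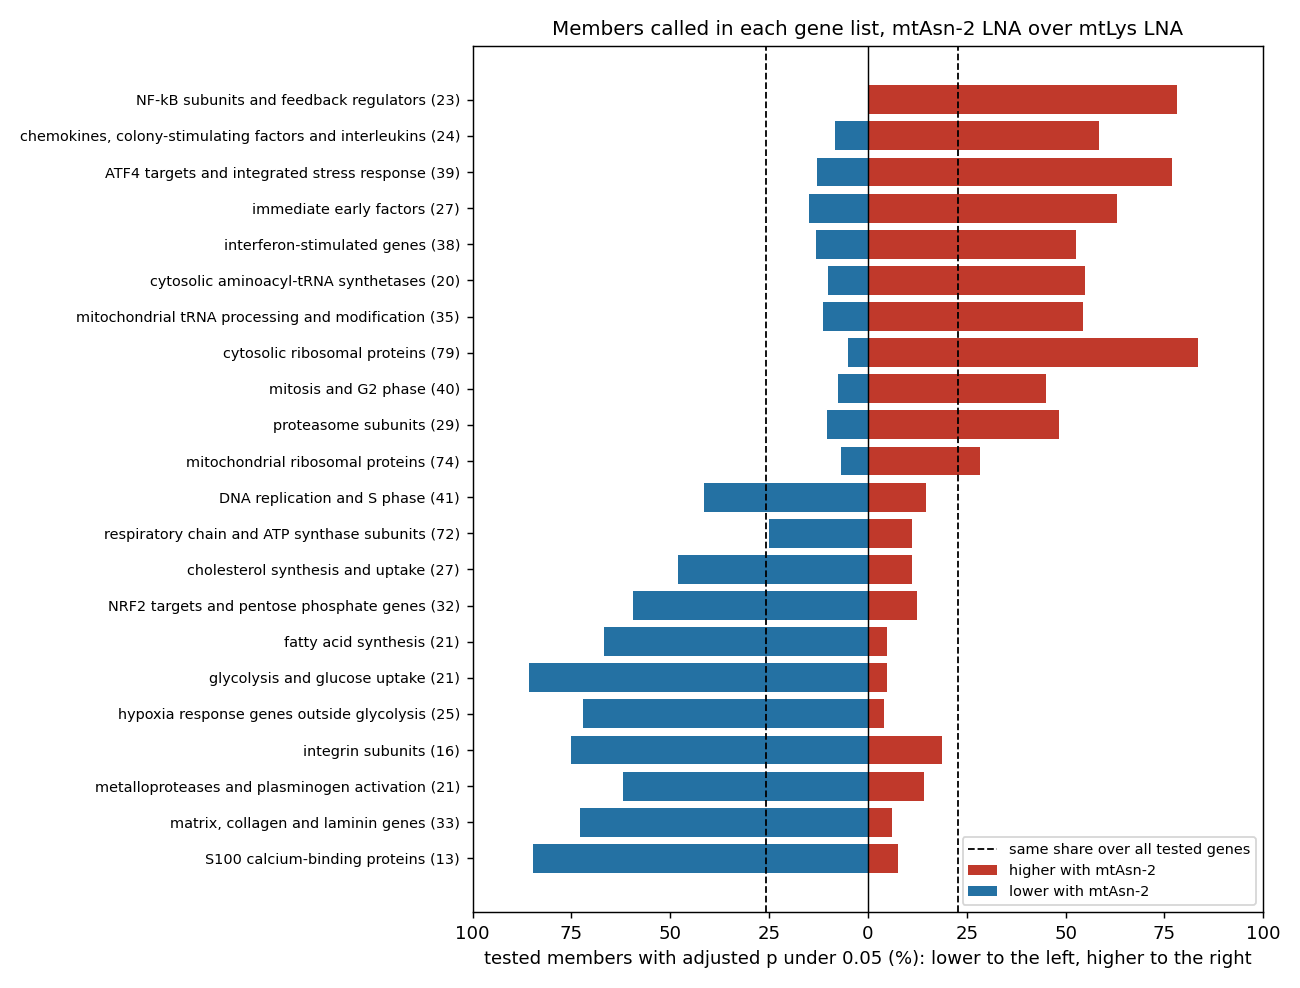
Share of the tested members of 22 gene lists that were higher (red, to the right) or lower (blue, to the left) with mtAsn-2 than with mtLys at an adjusted p under 0.05, with the number tested in brackets. Dashed lines mark the same shares over all tested genes, 22.9% higher and 25.7% lower.

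Matrix and adhesion genes were lower with mtAsn-2. Of 33 tested matrix, collagen and laminin genes, 24 fell and 2 rose, with a median of -0.44. Their summed level was 9980 CPM with mtAsn-2 and 13195 CPM with mtLys, and 10097 CPM in the control libraries, so the control level lay near mtAsn-2 and below mtLys. COL5A1, a chain of collagen V, had 261, 276 and 287 CPM with mtAsn-2, against 682, 638 and 647 CPM with mtLys. COL5A1 was lower, with a log2 fold change of -1.25 ± 0.0429 (adjusted p = 2.95e-19). COL4A1, of basement membrane collagen, fell (-0.86 ± 0.0428, adjusted p = 8.94e-16) and so did COL8A1 (-1.04 ± 0.0524, adjusted p = 1.35e-15). COL1A1, of collagen I, had 49.8, 51.95 and 58.7 CPM with mtAsn-2, against 36.2, 38.6 and 36.7 CPM with mtLys. COL1A1 rose by 0.52 ± 0.0583 on the log2 scale (adjusted p = 1.67e-08), and so did SPARC (0.43 ± 0.115, adjusted p = 0.00262). Of 16 integrin subunits 12 fell and 3 rose, with a median of -0.30: ITGA6, of laminin receptors, had 391.96, 410.5 and 394 CPM with mtAsn-2, against 633, 569 and 609.9 CPM with mtLys. ITGA6 fell by 0.60 ± 0.0450 on the log2 scale (adjusted p = 8.78e-12). The integrin list summed to 5380 CPM with mtAsn-2 and 6570 CPM with mtLys, and 4824 CPM in the control libraries, which is below both groups. The integrin subunits that rose were ITGAE, ITGAV and ITGB6. The ITGAV call was lost without mtAsn-2 replicate 1, and the ITGB6 call by DESeq2 and without mtAsn-2 replicate 2 or 3 or mtLys replicate 2 or 3. Of 21 metalloproteases, inhibitors and plasminogen activation genes, 13 fell and 3 rose (ADAMTS1, ADAMTS6 and ADAM17), and their sum was 4005 CPM with mtAsn-2 and 6023 CPM with mtLys, and 4240 CPM in the control libraries, again nearer to mtAsn-2. The inhibitor TIMP2 had 291, 292 and 302 CPM with mtAsn-2, against 689, 719 and 692 CPM with mtLys. TIMP2 was lower, with a log2 fold change of -1.25 ± 0.0404 (adjusted p = 1.09e-19). The membrane protease MMP14 had 552, 554 and 558 CPM with mtAsn-2, against 945, 858 and 876 CPM with mtLys. MMP14 fell by 0.69 ± 0.0437 on the log2 scale (adjusted p = 2.13e-13). HPSE, heparanase, which cuts heparan sulfate, had 6.80, 7.53 and 6.91 CPM with mtAsn-2, against 24.1, 25.2 and 24.6 CPM with mtLys and 25.6 CPM in control. HPSE fell by 1.80 ± 0.0673 on the log2 scale (adjusted p = 2.29e-18).

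Of 13 tested members of a list of S100 genes, which encode calcium-binding proteins, with the partner gene S100PBP, 11 fell and 1 rose: S100A4 (-0.57 ± 0.0470, adjusted p = 1.84e-10), S100A16 (-0.67 ± 0.0398, adjusted p = 4.74e-14) and S100A6 (-0.42 ± 0.0423, adjusted p = 2.54e-09) fell, and S100A2 rose (0.54 ± 0.0569, adjusted p = 5.98e-08). Keratins went both ways, with 4 of 10 higher and 5 lower, and KRT17 had 4.90, 5.65 and 4.81 CPM with mtAsn-2, against 0.809, 0.703 and 1.01 CPM with mtLys. KRT17 rose by 2.62 ± 0.170 on the log2 scale (adjusted p = 3.00e-13). KRT80 fell (-0.63 ± 0.0436, adjusted p = 1.52e-12). KRT15, KRT86 and KRT10 also rose, and KRT8, KRT7, KRT18 and KRT19 also fell, the KRT10 call being lost without mtAsn-2 replicate 1 or 2 or mtLys replicate 1 or 2 and the KRT18 call with library sizes alone. Keratin genes have close paralogs, and KRT8 and KRT18 are neighbours on opposite strands.

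Changes were ranked among called protein-coding genes whose groups did not overlap and whose mean log2 CPM reached 2. Among the 12 largest falls so ranked, the first was PTPRF (chromosome 1, 43522238 to 43623672, plus strand), a receptor tyrosine phosphatase, which had 89.4, 86.8 and 90.7 CPM with mtAsn-2, against 442, 452 and 417 CPM with mtLys and 296 CPM in control. PTPRF fell by 2.30 ± 0.0555 on the log2 scale (adjusted p = 2.67e-19). PPIC, a cyclophilin, had 8.48, 6.31 and 7.91 CPM with mtAsn-2, against 29.8, 29.1 and 28.8 CPM with mtLys. PPIC fell by 1.95 ± 0.0807 on the log2 scale (adjusted p = 2.14e-17). OFD1, a centriole protein, had 4.71, 4.78 and 4.84 CPM with mtAsn-2, against 16.6, 16.3 and 18.4 CPM with mtLys. OFD1 fell by 1.84 ± 0.0792 on the log2 scale (adjusted p = 4.06e-17). GAS6, a ligand of the receptor kinase AXL, had 134, 134 and 142 CPM with mtAsn-2, against 464, 493 and 487 CPM with mtLys. GAS6 fell by 1.82 ± 0.0416 on the log2 scale (adjusted p = 5.81e-23), with the smallest standard error of the 12. For PPIC, OFD1 and GAS6 the control means, 27.5, 16.5 and 477 CPM, were near the mtLys level, so the mtAsn-2 group stood apart from both others. PCMTD1 (-1.71 ± 0.0982, adjusted p = 2.37e-14), CPA4, a carboxypeptidase (-1.72 ± 0.0783, adjusted p = 1.37e-16), and INHBB, an activin chain (-1.67 ± 0.117, adjusted p = 1.27e-08), were among the 12 with HPSE, SCD5 and the long genes SHANK2 and TLN2. The 12 largest rises in the same ranking were NR4A1, ATF3, NUPR1, 5 cytokine genes (CXCL2, CSF3, CXCL8, CXCL1 and CSF2) and 4 others: PTPRH, another receptor phosphatase (17.2, 19.2 and 18.8 CPM with mtAsn-2, against 7.49, 4.69 and 6.40 CPM with mtLys, 1.57 ± 0.131, adjusted p = 1.75e-08), RRAD, a small GTPase (1.46 ± 0.121, adjusted p = 3.24e-10), BEX2 (1.43 ± 0.0898, adjusted p = 1.65e-13) and CEACAM19 (1.48 ± 0.111, adjusted p = 7.22e-12). The water channel genes AQP1 and AQP3 were both lower: AQP1 had 1.90, 1.84 and 1.61 CPM with mtAsn-2, against 6.17, 6.24 and 6.26 CPM with mtLys. AQP1 fell by 1.80 ± 0.121 on the log2 scale (adjusted p = 7.01e-13). AQP3 had 6.69, 5.65 and 7.67 CPM with mtAsn-2, against 16.5, 21.6 and 19.1 CPM with mtLys. AQP3 fell by 1.51 ± 0.113 on the log2 scale (adjusted p = 5.76e-10).

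Gene span went with the direction of the difference. Among tested protein-coding genes, those under 10 kb from start to end were higher in 31.1% and lower in 18.3% of 2499 genes (median 0.06), those of 10 to 50 kb in 30.7% and 21.97% of 5613 (0.04), those of 50 to 100 kb in 22.7% and 32.2% of 2199 (-0.03), those of 100 to 400 kb in 11.7% and 51.9% of 2152 (-0.20), and those over 400 kb in 1.79% and 74.3% of 280 (-0.60). Of these 280 genes, 208 were lower with mtAsn-2, and 5 (CDH23, DLG2, DNAH14, MGAT4C and N6AMT1) were higher. The median level of the 280 against the control mean, on the log2 scale, was -0.11 with mtAsn-2 and 0.51 with mtLys. EXOC4, an exocyst subunit spanning 814071 bases, had 34.8, 34.2 and 35.9 CPM with mtAsn-2, against 79.9, 71.9 and 81.3 CPM with mtLys and 15.4 CPM in control, below both. EXOC4 fell by 1.15 ± 0.0535 on the log2 scale (adjusted p = 2.27e-16). MAGI1, a scaffold of cell junctions spanning 685393 bases, had 39.1, 39.4 and 42.9 CPM with mtAsn-2, against 108, 104 and 107 CPM with mtLys and 55.8 CPM in control. MAGI1 fell by 1.40 ± 0.0548 on the log2 scale (adjusted p = 8.07e-18). SHANK2, a scaffold spanning 784871 bases, had 5.64, 5.28 and 5.996 CPM with mtAsn-2, against 19.9, 22.03 and 19.99 CPM with mtLys. SHANK2 fell by 1.87 ± 0.0882 on the log2 scale (adjusted p = 2.95e-16). DIP2C, spanning 415510 bases, had 20.8, 16.4 and 19.3 CPM with mtAsn-2, against 60.1, 59.9 and 59.7 CPM with mtLys. DIP2C fell by 1.67 ± 0.0639 on the log2 scale (adjusted p = 7.44e-18). The mtLys libraries were the highest of the 3 groups in all of these. THSD4 (-1.61 ± 0.0867, adjusted p = 6.89e-14), RBMS3 (-1.60 ± 0.0866, adjusted p = 5.98e-15), SDK1 (-1.49 ± 0.0788, adjusted p = 4.83e-15) and FHIT (-1.32 ± 0.117, adjusted p = 2.28e-10) fell too. DNAH14, an axonemal motor protein, rose (0.59 ± 0.107, adjusted p = 4.12e-05). The DLG2 call (adjusted p = 0.0489) was lost without any one of the 6 libraries, and the N6AMT1 call without mtAsn-2 replicate 3 or mtLys replicate 2. These 5 were named after their values were seen. Of the 280 genes, 35 had no annotated gene on the opposite strand, and 26 of these were lower, with a median of -0.50.

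**Figure D5:**
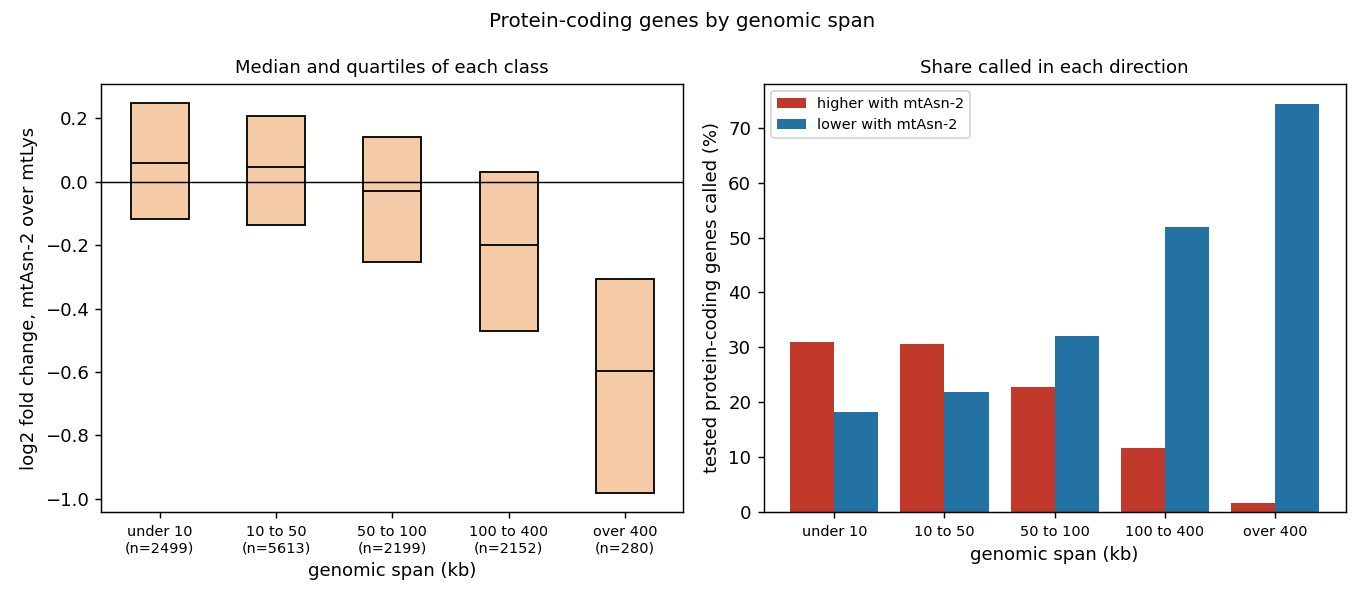
Tested protein-coding genes in 5 classes of genomic span in kilobases. Left, median (line) and quartiles (box) of the log2 fold change of mtAsn-2 over mtLys, which runs from 0.06 under 10 kb to -0.60 over 400 kb; right, the share of each class that was higher (red) or lower (blue), 1.79% and 74.3% over 400 kb.

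Genes of cell division went both ways. Of 40 mitosis genes 18 rose and 3 fell (KIF20A, BUB3 and ANLN), with a median of 0.10, and the ANLN call was lost by DESeq2 and without mtAsn-2 replicate 1 or 3 or mtLys replicate 1 or 3. With library sizes alone 28 rose and the 3 lower calls were lost, and without mtAsn-2 replicate 2 the number higher was 11. Those that rose included CENPF (0.36 ± 0.0467, adjusted p = 2.97e-07), a kinetochore protein, and MAD2L1 (0.35 ± 0.0506, adjusted p = 1.69e-06), a checkpoint protein. Of 41 DNA replication genes, 17 fell and 6 rose, with a median of -0.08, against 11 higher and a median of 0.00 with library sizes alone. The number higher was 3 without mtAsn-2 replicate 1 or 2 or mtLys replicate 3. POLA1, the catalytic subunit of the polymerase that primes replication, had 24.004, 25.2 and 25.4 CPM with mtAsn-2, against 45.8, 44.2 and 45.4 CPM with mtLys. POLA1 fell by 0.86 ± 0.0554 on the log2 scale (adjusted p = 2.80e-13). CLSPN, a replication checkpoint protein, rose (0.32 ± 0.0607, adjusted p = 0.000164). 

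Of 23 p53 target genes 10 rose (43.5%) and 5 fell (21.7%, beside 25.7% of all tested genes), namely BAX, ZMAT3, DDB2, TP53INP1 and SAT1. Leaving out any of the 6 libraries except mtLys replicate 3 left 3 lower, as did DESeq2 and no filter, and library sizes alone left 2. The ZMAT3 call was lost in each of those, and with DESeq2's size factors, the stricter filter or a replicate block. The BAX call was lost by DESeq2, with library sizes alone, with no filter and without mtAsn-2 replicate 1 or 2 or mtLys replicate 1 or 2. The DDB2 call was lost with library sizes alone and without replicate 3 of either group. MDM2, which marks p53 for destruction, rose (0.31 ± 0.0470, adjusted p = 2.65e-06) and SAT1, a polyamine enzyme, fell (-0.65 ± 0.173, adjusted p = 0.0129). This line carries mutant p53, and the activity of p53 was not measured. Of 16 BCL2 family genes 6 rose (37.5%) and 4 fell (25%, near the 25.7% of all tested genes), including BOK and BAX. The death-promoting PMAIP1 rose (0.56 ± 0.0588, adjusted p = 5.93e-09) and BMF fell, with 4.13, 4.25 and 5.27 CPM with mtAsn-2, against 9.25, 10.8 and 10.2 CPM with mtLys and 56.8 CPM in control. BMF fell by 1.15 ± 0.117 on the log2 scale (adjusted p = 2.29e-08). The protective BCL2L1 fell (-0.42 ± 0.0392, adjusted p = 4.87e-10). Proteasome subunits rose in 14 and fell in 3 of 29 (PSMB5, PSMB7 and PSMD1), with a median of 0.08. The PSMB5 call was lost by DESeq2, with library sizes alone and without mtAsn-2 replicate 1 or 2 or mtLys replicate 2, and the number higher was 23 with library sizes alone and 5 without mtAsn-2 replicate 1 or mtLys replicate 1. Of 27 TGF-beta and activin genes 12 fell (44.4%) and 7 rose (25.9%, near the 22.9% of all tested genes), with SKIL (0.89 ± 0.0743, adjusted p = 6.10e-11), a brake on this pathway, the receptor TGFBR1 (0.50 ± 0.0486, adjusted p = 1.18e-09) and the signal carrier SMAD3 (0.23 ± 0.0386, adjusted p = 1.22e-05) among those that rose, and the receptor TGFBR2 (-0.60 ± 0.0379, adjusted p = 2.01e-13) among those that fell. Of 28 YAP-TEAD genes 14 fell and 9 rose, with a median of -0.08 that became 0.00 with library sizes alone, and TEAD1, the DNA-binding partner, had 172, 174 and 174 CPM with mtAsn-2, against 293, 299.9 and 288 CPM with mtLys. TEAD1 fell by 0.76 ± 0.0375 on the log2 scale (adjusted p = 8.36e-16). Prostaglandin genes rose in 5 (PTGS2, PTGER2, PTGES, PLA2G4A and TBXA2R) and fell in 3 of 16 (PTGS1, HPGD and TBXAS1). That is 31.25% higher and 18.75% lower, beside 22.9% and 25.7% of all tested genes. With the stricter filter 3 rose and 1 fell. PTGS2, the inducible cyclooxygenase, had 6.69, 7.72 and 6.03 CPM with mtAsn-2, against 3.94, 2.75 and 3.69 CPM with mtLys. PTGS2 rose by 0.98 ± 0.130 on the log2 scale (adjusted p = 4.00e-07). PTGS1, the constitutive one, had 0.963, 0.781 and 1.19 CPM with mtAsn-2, against 2.97, 2.84 and 2.79 CPM with mtLys. PTGS1 fell by 1.55 ± 0.182 on the log2 scale (adjusted p = 4.66e-08). The PTGER2 call was lost by DESeq2 and without mtAsn-2 replicate 1 or mtLys replicate 2 or 3, and the TBXA2R call without mtAsn-2 replicate 2 or 3 or mtLys replicate 1.

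Of 28 TNF ligands and receptors 8 rose (28.6%) and 7 fell, shares near the 22.9% and 25.7% of all tested genes, and 4 fell with the stricter filter. TNFRSF9 (0.94 ± 0.115, adjusted p = 9.22e-08) rose and the TNF receptor TNFRSF1A fell (-0.36 ± 0.0423, adjusted p = 4.58e-08), and TNFSF15, with 8.84, 8.31 and 12.8 CPM with mtAsn-2, against 4.39, 9.32 and 3.91 CPM with mtLys, did not pass (adjusted p = 0.0853) but did with the stricter filter (0.0465) and without mtLys replicate 2 (4.19e-05).

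The control level lay between the group means for 1717 of the higher genes (46.6%) and 1989 of the lower genes (48.2%), beside 5042 of all 16051 tested genes (31.4%). It was below both groups for 1106 of the higher genes and above both for 859, and above both for 1141 of the lower genes and below both for 995. In 1088 genes all 3 control libraries lay between the 2 groups with no overlap, 387 of them higher and 701 lower with mtAsn-2. Among those of the ranking used above (protein-coding, with a mean log2 CPM of at least 2), the largest rises were PTPRH, CEACAM19, ZNF850 (1.28 ± 0.0801, adjusted p = 1.54e-13), the epithelial factor ELF3 (1.17 ± 0.0985, adjusted p = 7.82e-11), CENPV (1.12 ± 0.114, adjusted p = 3.05e-09) and carbonic anhydrase CA2 (1.11 ± 0.104, adjusted p = 7.34e-10). ELF3, for example, had 14.4, 13.2 and 16.1 CPM with mtAsn-2, against 7.06, 5.48 and 6.93 CPM with mtLys, with a control mean of 9.57 CPM. The largest falls were PTPRF, SHANK2, CPA4, TLN2, SCD5 and DIP2C. The controls were used only for level, so these positions carry no test. Called genes were selected for a difference between the group means, which makes a control mean between them more likely. Their shares of 46.6% and 48.2% therefore cannot be read as a result beside the 31.4%.

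The library kit does not mark strand and the strand setting of the counting is not given, so reads cannot be assigned between a gene and one that overlaps it on the opposite strand. Among the genes given with a value in every library, ICAM1, GAS6, HPSE, CHAC1, NR4A1, ASNS, SLC7A11, RPL26L1, RPL27A, WARS1, CARS1, LOX, SREBF2, GLUD1, COL5A1, ITGA6, PPIC, OFD1, SHANK2, EXOC4, MAGI1, DIP2C, POLA1 and TEAD1 are such genes, as are many of those given by their fold change alone, and their values are uncertain to that extent.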

How the data were processed

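RNA-seq libraries of MDA-MB-231 cells were made from total RNA with the TruSeq RNA Library Kit v2, per the labels' protocols. The deposited table holds whole-number read counts per gene, not normalized, which the authors made from the reads. FastQC, STAR 2.6.0a, featureCounts, DESeq2 and hg38 are named in the submitters' processing notes, without their settings, and whether counting used strand is not given in the sources used here. Of 52897 lines, 38 were broken by the length of their text and were left out with 12 genes. 6108 genes lie on alternate loci, where reads that also match the main locus may be lost.

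All 12 libraries entered 1 edgeR 4.0.16 quasi-likelihood fit (R 4.3.3; robust, TMM factors, genes kept by filterByExpr with a minimum count of 10 and a total of 15), with mtAsn-2 minus mtLys as the contrast and Benjamini-Hochberg adjustment over 16051 genes. The control and mtAsn-1 libraries only add to the estimate of spread. Standard errors were computed back from the fold change and the F statistic. CPM values use the TMM-scaled library sizes, and logarithms of CPM a prior count of 2. The common biological coefficient of variation was 0.0421. No pair of libraries within the mtAsn-2 group or within the mtLys group was close to a copy (chi-square per gene at least 2.49). Other pairs were not compared in this way. In simulated counts for this contrast (15798 genes), 50 genes each were changed 1.25, 1.5, 2 and 4-fold, in random directions, and the rest were left unchanged. Of the changed genes 58%, 80%, 88% and 98% were called, and 3 of 165 calls were false. In the data 48.6% of tested genes were called, so the simulated share of false calls need not hold for the reported counts. Intervals and floors on counts cover counting error only.

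The members and the gene lists were chosen with earlier results of these data known, and the lists get counts and medians with no test. List members that were not tested had too few reads. Genes were named by rule: the genes of the targeted tRNAs and their synthetases, the 12 largest changes in each direction among called protein-coding genes whose groups do not overlap and whose mean log2 CPM reaches 2, up to 3 members in each direction of each list, the 6 largest of that set in each direction with every control library between the groups, the 5 called genes with the most reads, and extra genes chosen after their values were seen, among them all members of counts of 5 or fewer. Alternatives were other scalings, filters and tools, the 6 libraries alone, a replicate block and each library left out. A few of the genes so chosen are not reported here.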

Additional observations from a re-analysis of the deposited data

How the results depend on the processing

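With 3682 genes higher and 4125 lower as the reported counts, DESeq2's size factors in edgeR gave 3857 and 4010, library sizes alone 5447 and 3101, DESeq2 3389 and 3653, no filter on low counts 3924 and 3866, a stricter filter (1 CPM or more in all libraries of 1 group, and 2 or more as the mean log2 CPM) 3153 and 3373, and the 6 libraries alone 3979 and 4147. Leaving out each of the 6 libraries in turn gave 3163 to 3554 higher and 3609 to 3992 lower, with 716 to 809 genes at least 2-fold apart. The stricter filter, which tests fewer genes of low level, left 198 genes at least 2-fold apart in place of 719. The replicate numbers did not pair the samples: same-numbered deviations correlated at -0.10, -0.04 and -0.06, and 0 of the 6 libraries correlated best with its own number. A replicate block gave 3513 higher and 3976 lower.

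Of 312 called genes that the rule or the text names, 269 kept their call under every alternative run, 43 lost it under at least 1 and 0 changed sign. Of 1144 list counts under alternatives, 79 moved by over 1.5 times. NARS2, which was not called, had a log2 fold change of -0.00035, and of 0.0076 with DESeq2's size factors, 0.084 with library sizes alone, 0.0075 by DESeq2, 0.017 with no filter, 0.0057 with the stricter filter, 0.0058 with the 6 libraries alone, 0.00046 with the block and -0.029 to 0.034 with 1 library left out. MT-TK, also not called, had -0.014 (without mtAsn-2 replicate 2) to 0.27 (without mtAsn-2 replicate 3). The log2 difference of MT-TN was -0.46 in log2 CPM, -0.75 to -0.24 with 1 library left out, and no setting can bring 3 libraries against 3 below 0.1 in an exact permutation test.

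For genes over 400 kb, alternatives chosen after seeing the data gave a share lower of 50.1% with no filter, 84.3% of genes whose mean log2 CPM reached 2, and 70.7% to 83.8% otherwise. Depth limits the tRNA genes and others of a few reads, for which differences cannot be detected. The causes of these changes between settings were not tested.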
